A study of Mus musculus with 9 samples.

Results

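In DN3 thymocyte precursors, 2257 genomic regions carried peaks of both E2A and HEB and then had no called peak of either factor after the cells received a gamma-delta T cell receptor. They were chosen by peak presence alone. The peaks of the 6 deposited lists were merged where they overlapped by at least 1 bp on chromosomes 1 to 19, X and Y, which gave 58451 merged regions, and a region was kept if both DN3 lists and none of the 4 later lists had a peak in it. Regions with both DN3 peaks are called joint below. There were 5292 of them, so that 42.6%, or 3.86% of all merged regions, lacked a later peak (95% Wilson interval 41.3 to 44.0%, counting error only). The other 3035 had at least 1 later peak.

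The series is chromatin immunoprecipitation and sequencing in mouse BALB/c cells, with 1 E2A, 1 HEB and 1 input library in each of 3 groups, 9 libraries in all. The first group is DN3 cells grown to day 7 from Rag2-deficient fetal liver progenitors, which cannot rearrange their own receptor genes. The other 2 groups are such cells after transfer of KN6, a gamma-delta receptor carried with a YFP reporter by a retrovirus (MIY-KN6), and 3 days of culture on OP9-DL1 stroma, which supplies a Notch ligand. Both were sorted as Thy1+ YFP+ CD4- CD8- CD24+ cells, one as CD73- and one as CD73+. CD73, encoded by Nt5e, marks cells that have taken the gamma-delta fate, while CD73- cells can still take the alpha-beta fate. Every group carries the Rag2 deficiency, and no group was given a retrovirus without the receptor, so that effects of the receptor, the transduction, the added culture days and the sort cannot be told apart. Fixation, 10 min in 1% formaldehyde, is given for the CD73- and CD73+ cells and not for the DN3 cells. Any difference in preparation cannot be told apart from those effects either. RNA was not measured, so the labelled cell types were not checked against marker transcripts. The authors joined duplicates before calling peaks, which leaves 1 pooled list per group, no replicate error and no test of any difference between groups.

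E2A, the product of Tcf3, and HEB, the product of Tcf12, are E proteins: basic helix-loop-helix factors that pair with each other or with themselves and bind the E-box, CANNTG. In early thymocytes they help to switch on the pre-T cell receptor, the recombination genes and other genes of T lineage specification. Signals from the pre-T cell or gamma-delta receptor induce Id3, whose product pairs with E proteins and keeps them off DNA.

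No later peak means that none was called. Depth is not given in the files and is unknown. The later lists held narrower peaks, with median widths of 155 bp for CD73- E2A, 149 bp for CD73- HEB, 175 bp for CD73+ E2A and 181 bp for CD73+ HEB, against 617 bp for DN3 E2A and 721 bp for DN3 HEB. Their part in the missing overlap was not tested. The scores are the authors' -10 log10 of the peak p-value, at least 50 in each list, and are read only within a list.

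Few of the 2257 regions touched a gene start, and 7 of the promoters that they overlapped are shown because a peak of each factor overlapped them and they hold E-boxes, the letters that E proteins read. Members overlapped 85 of 21238 RefSeq promoter windows of build GRCm38.p6 (mm10), 0.400% of them, each running from 250 bases before to 50 after a start. Sit1 encodes an adaptor that dampens T cell receptor signalling, Ltb encodes the lymphocyte cytokine lymphotoxin beta, and Polm encodes DNA polymerase mu, which fills ends during V(D)J joining. These 3 were chosen after their values were seen. Cldn4 encodes a tight junction claudin, Eps8l2 an actin regulator, Chgb the secretory granule protein chromogranin B and Dnah8 an axonemal dynein, and these had the highest E2A scores among windows covered in full by both peaks. The windows of Degs2, Plcxd1 and Psma6 scored as high, but their E2A peaks covered 0 of the 300 bases. The sequences run 5′ to 3′ on the gene's strand, with every CANNTG in capitals.
Sit1: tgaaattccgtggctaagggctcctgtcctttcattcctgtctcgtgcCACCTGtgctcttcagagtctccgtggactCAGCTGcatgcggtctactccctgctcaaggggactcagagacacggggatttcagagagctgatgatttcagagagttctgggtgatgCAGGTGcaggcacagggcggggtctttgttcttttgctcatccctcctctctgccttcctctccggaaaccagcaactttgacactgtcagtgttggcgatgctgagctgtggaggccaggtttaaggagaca
Ltb: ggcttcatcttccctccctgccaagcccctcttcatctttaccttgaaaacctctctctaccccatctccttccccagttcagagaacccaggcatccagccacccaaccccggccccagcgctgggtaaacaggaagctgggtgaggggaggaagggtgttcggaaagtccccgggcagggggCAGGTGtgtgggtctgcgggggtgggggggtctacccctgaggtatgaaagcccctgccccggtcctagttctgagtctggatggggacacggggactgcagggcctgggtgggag
Polm: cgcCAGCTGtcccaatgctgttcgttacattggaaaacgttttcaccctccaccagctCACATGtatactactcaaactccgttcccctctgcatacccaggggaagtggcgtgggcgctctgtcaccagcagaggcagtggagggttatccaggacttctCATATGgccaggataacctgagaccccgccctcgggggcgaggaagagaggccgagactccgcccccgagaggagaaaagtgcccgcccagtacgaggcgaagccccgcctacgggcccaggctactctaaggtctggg
Cldn4: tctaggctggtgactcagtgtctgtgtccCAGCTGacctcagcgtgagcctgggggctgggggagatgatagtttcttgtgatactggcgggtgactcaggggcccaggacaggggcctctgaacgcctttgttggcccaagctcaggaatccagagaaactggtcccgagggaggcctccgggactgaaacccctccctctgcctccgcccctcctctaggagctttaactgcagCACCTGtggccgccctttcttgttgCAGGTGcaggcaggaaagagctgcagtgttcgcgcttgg
Eps8l2: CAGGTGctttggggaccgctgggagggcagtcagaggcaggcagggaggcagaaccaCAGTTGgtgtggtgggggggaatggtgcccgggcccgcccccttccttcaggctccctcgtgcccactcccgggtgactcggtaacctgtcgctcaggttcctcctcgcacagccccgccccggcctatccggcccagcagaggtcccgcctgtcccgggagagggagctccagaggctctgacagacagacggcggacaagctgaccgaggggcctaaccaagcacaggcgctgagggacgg
Chgb: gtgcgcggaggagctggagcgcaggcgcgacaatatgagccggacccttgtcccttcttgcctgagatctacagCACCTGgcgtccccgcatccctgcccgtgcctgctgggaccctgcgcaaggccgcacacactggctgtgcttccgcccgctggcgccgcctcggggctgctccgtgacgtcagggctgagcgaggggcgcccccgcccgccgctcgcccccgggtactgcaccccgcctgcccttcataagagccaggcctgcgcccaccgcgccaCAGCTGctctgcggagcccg
Dnah8: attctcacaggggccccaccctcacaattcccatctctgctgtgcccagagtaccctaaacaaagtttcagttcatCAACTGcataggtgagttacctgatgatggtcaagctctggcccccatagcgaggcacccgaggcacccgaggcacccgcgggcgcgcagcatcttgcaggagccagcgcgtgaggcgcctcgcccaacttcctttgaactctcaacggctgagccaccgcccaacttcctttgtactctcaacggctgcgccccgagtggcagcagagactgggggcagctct
The Sit1 window is chr4:43483660-43483959 on the minus strand, inside a joint region scored 205 for E2A and 83.8 for HEB. It holds 3 E-boxes, whose first bases lie at -202, -172 and -83, counted with the start base as 1. The Ltb window, chr17:35194257-35194556 on the plus strand, holds a single E-box, CAGGTG, at -66, under peaks scored 109 and 218. The Polm window is chr11:5837967-5838266 on the minus strand, and of its 300 bases the E2A peak covered 49 and the HEB peak 289. Its 3 E-boxes, at -247, -192 and -89, lie outside the bases under the E2A peak. Both peaks covered all 300 bases in the other 6 windows. The Cldn4 window is chr5:134946885-134947184 on the minus strand, with scores of 408 and 161, and 2 of its 3 E-boxes flank the start at -14 and 12. The Eps8l2 window, chr7:141338752-141339051 on the plus strand, has almost the same bases as the Deaf1 window on the other strand, and its region was scored 358 and 212. The Chgb window is chr2:132781392-132781691 on the plus strand and the Dnah8 window is chr17:30626686-30626985 on the plus strand, with 2 E-boxes and 1.

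CANNTG takes in the 4 E-boxes with a named centre, which were also counted alone. Over all promoter windows that members overlapped, an E-box occurred in 69 of 85 (81.2%, 71.6 to 88.1%), against 152 of 186 windows overlapped by joint regions with a later peak (81.7%, 75.5 to 86.6%) and 69.0% of all 21238 windows. The GC-centred E-box CAGCTG was found in 25.9% of member windows (17.8 to 36.1%), against 33.9% of those with a later peak (27.5 to 40.9%) and 15.6% of all. CAGGTG, read with its reverse complement CACCTG, was found in 38.8% of member windows, against 37.6% of those with a later peak and 19.7% of all. Member windows thus held these E-boxes at shares whose intervals overlapped those of the other joint regions. CATATG was in 6 of 85 member windows (7.06%, 3.28 to 14.6%), against 1 of 186 with a later peak (0.538%, 0.0950 to 2.98%) and 3.19% of all. CACGTG was in 4.71%, against 7.53% and 7.84%. Median GC content was 60% in member windows, against 62.2% in those with a later peak and 56.3% in all. Some windows belong to 1 gene or overlap each other, and with 1 window for each of the 77 genes an E-box was in 80.5%. Even then, the windows of Gm4631, Gm4724, Gm2007, Gm14305 and Gm14391 on chromosome 2 held nearly the same set of E-boxes. The intervals take no account of such repeats.

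Cores of partner factors were counted on both strands in the same windows, and each is a match of letters only. The RUNX core TGTGGT was in 11.8% of member windows, against 16.7% of those with a later peak and 14.97% of all, and the ETS core AGGAAG was in 37.6%, against 36.6% and 34.4%. The TCF-LEF core CTTTGA was in 17.6%, against 10.2% and 14.4%. The GATA core AGATAA was in 8.24%, against 6.45% and 9.65%, and the AP-1 core TGANTCA was in 7.06%, against 5.38% and 6.99%. All 5 shares in member windows had intervals that included the share in all windows. The CRE half-site TGACG was in 18.8%, against 28.0% and 23.6%, the SP-KLF box GGGCGG in 49.4%, against 54.8% and 46.2%, and the NFY box CCAAT in 40%, against 27.4% and 38.2%.

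The regions without a later peak were the weaker joint regions, as the DN3 lists score them. Their highest E2A score had a median of 114 (quartiles 76.0 and 181), against 234 (127 and 484) in joint regions with a later peak. Their highest HEB score had a median of 83.4 (64.1 and 120), against 162 (93.6 and 299). A member typically ranked at the 64.7th percentile of the DN3 E2A list and the 61.0th of the HEB list, against the 84.0th and 83.4th for the others. Both scores were under 100 in 755 members (33.5%), against 338 of 3035 (11.1%), and both reached 100 in 650 (28.8%), against 1994 (65.7%). The ranges overlapped throughout, from 50.01 to 1913 for the E2A score of members and from 50.01 to 3216 for that of the others. These scores come from the lists that chose the regions and are given as a description.

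The share of joint regions without a later peak fell with the DN3 score. It was 66.1% for E2A scores of 50 to 60, 62.3% for 60 to 75, 64.2% for 75 to 100, 56.4% for 100 to 150, 44.2% for 150 to 200 and 37.1% for 200 to 300. It was then 24.0% for 300 to 500, 8.96% for 500 to 1000 and 1.05% above that, where 3 of 286 joint regions lacked a later peak. For HEB scores it went down in each step up to 1000, with 67.9% at 50 to 60, 46.4% at 100 to 150, 18.2% at 200 to 300 and 9.81% at 300 to 500, and only 3 joint regions with a HEB score of 500 or more were without a later peak, 2 of 267 up to 1000 and 1 of 107 above. Below an E2A score of 100 the share stayed between 62.3% and 66.1%.

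**Figure D1:**
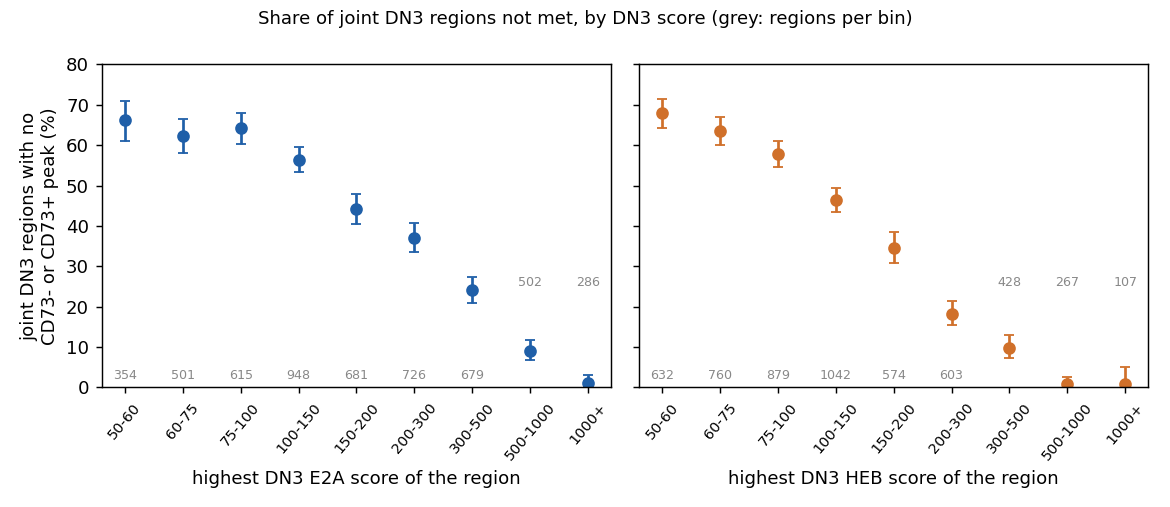
Share of joint DN3 regions without a CD73- or CD73+ peak, in percent, by the region's highest DN3 E2A score (left) and DN3 HEB score (right). Points are shares, bars are 95% Wilson intervals for counting error, and the grey numbers are joint regions per bin. The share is 66.1% in the lowest E2A bin and 1.05% in the highest.

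In shape the members were plain sites. A single E2A peak and a single HEB peak made up 2214 of the 2257 (98.1%), against 95.7% of joint regions with a later peak. The midpoints of the 2 peaks lay a median of 89 bp apart, against 92 bp. The HEB peak was the wider in 68.1% of members, against 74.2%, and at least 90% of the narrower peak lay inside the other in 73.5%, against 82.7%. Median region width was 899 bp, against 1084 bp. Members were 44.7% of joint regions under 600 bp, 61.1% of those of 600 to 800 bp and 5.36% of those of 2000 bp or more. Region width takes in any later peak merged into the region, so these contrasts follow in part from the rule. The highest-scoring DN3 peak alone had a median width of 680 bp for E2A and 788 bp for HEB, against 820 and 995 bp. The 2 scores went together less closely, with a Spearman rho of 0.46 over 2257 members and 0.72 over 3035 others. That is a description over regions that share libraries, in which the members cover a shorter range of scores.

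The highest-scoring member lay 18656 bp from Xbp1, which encodes the transcription factor of the unfolded protein response. It is chr11:5499751-5501984 in mm10, outside any protein-coding gene span, with scores of 1913 for E2A and 1039 for HEB, and the nearest later peak lay 23300 bp away. Next by E2A score stood a region 24954 bp from Slc6a6, the taurine transporter gene, with 1065 and 571. A region inside Fry, whose product is a large scaffold for NDR kinases, followed with 1020 and 559. These were the 3 members with an E2A score of 1000 or more. Beside Nfix, which encodes a nuclear factor I protein, a region scored 955 and 221. Inside Smarca4, which encodes the BRG1 ATPase of SWI/SNF chromatin remodelling complexes, chr9:21651783-21653818 scored 900 and 411.

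The remaining 7 of the top 12 by E2A lay in Mrvi1 (842 and 274), Tmod3 (838 and 98.6), Tm6sf1 (795 and 366), Plxnd1 (791 and 361), Mical2 (760 and 204) and Mvb12b (742 and 129), and 55022 bp from Gm39147 (826 and 183). Tmod3 encodes an actin-capping tropomodulin and Plxnd1 a semaphorin receptor that guides thymocyte migration. In the Tmod3 region a high E2A score stood beside a HEB score under 100. By HEB score the top 12 added Esr1, the estrogen receptor alpha gene, with 153 for E2A and 499 for HEB, and Rab3ip, a Rab exchange factor gene, with 152 and 443. It also added Zfp710 (609 and 478), Acsf3 (737 and 463, 1489 bp from the gene) and Syt14 (686 and 457, 31411 bp from the gene). The rest of those added were Sergef (466 and 444), Zbtb7b (544 and 430) and a second region near Gm39147 (209 and 407). Distances to the nearest later peak among these 20 regions ran from 823 bp at Acsf3 to 146006 bp at Slc6a6.

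**Figure D2:**
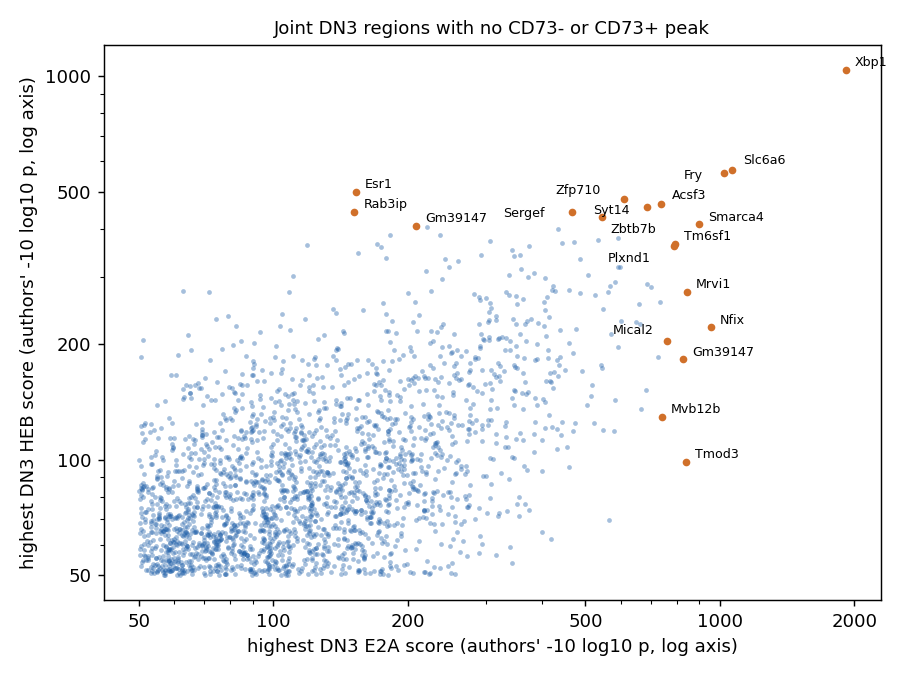
Highest DN3 HEB score against highest DN3 E2A score of each of the 2257 joint regions without a later peak, both on log axes. Orange points are the top 12 by either score, labelled by the gene that holds them or is nearest, and Xbp1 stands apart at 1913 and 1039.

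Some members were much stronger for one factor. By rank within the 2 lists, HEB stood far above E2A at regions in Col4a2 (50.6 for E2A and 185 for HEB), Pdlim5 (51.1 and 205), Grap (51.2 and 123) and Cd247 (50.9 and 118). Cd247 encodes the zeta chain of the T cell receptor complex. E2A stood far above HEB at regions in Crtc3 (255 and 50.4) and Mitf (250 and 50.5). The same held 2053 bp from Rab4a (223 and 50.2), 62681 bp from Gadd45g (224 and 50.7) and 6643 bp from 4930503L19Rik (206 and 50.5). In each of these regions, the weaker factor sat close to the minimum score of 50. They were chosen after their values were seen.

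The share of members inside genes was higher, and the share at gene starts lower, than among the other joint regions. With 1 pooled list per group, neither difference was tested beyond counting error. A gene span held 56.7% of members (54.7 to 58.7%), against 52.2% of joint regions with a later peak (50.4 to 54.0%) and 41.8% of those with a peak in all 4 later lists (38.0 to 45.8%). It held 53.5% of those with a CD73+ HEB peak alone (50.4 to 56.6%). Of the other joint regions met by some but not all later lists it held 55.7% (53.1 to 58.3%). Both of these intervals overlapped that of members. More than 100 kb from any span lay 8.82% (7.72 to 10.1%), against 12.1% (11.0 to 13.3%) and 20.1%. With a CD73+ HEB peak alone it was 10.5%, and in the other partly met regions 9.78%. Here too the intervals overlapped that of members. A RefSeq start was inside or within 1 kb of 121 of 2193 members (5.52%, 4.64 to 6.55%), against 246 of 2951 others (8.34%, 7.39 to 9.39%), leaving out chromosomes with no promoter table. The start lay inside the region itself for 2.55% of members, against 5.12%. Distances were taken from the region's edges, and members were narrower, with a median of 899 bp against 1084 bp. The part of width in these shares was not tested. Within each range of E2A score, chosen after seeing the data, the order was the same for starts within 1 kb: 6.99% against 10.6% at 50 to 100, 5.31% against 9.03% at 100 to 200, 2.86% against 8.25% at 200 to 500, and 4.26% of 47 against 6.10% of 721 above 500. The intervals overlapped in the lowest and the highest range. For gene spans it was 52.6% against 46.5%, 59.0% against 50.6%, 60.6% against 55.5% and 62.5% against 53.8%, with intervals that overlapped except at 100 to 200. Exons, introns and UTRs were not told apart.

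**Figure D3:**
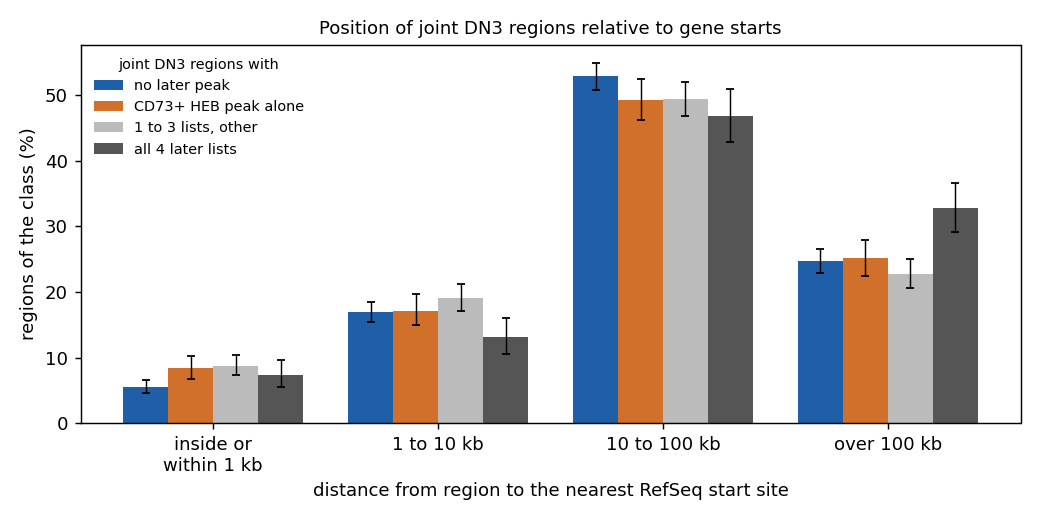
Percent of joint DN3 regions of each class by distance to the nearest RefSeq start, with 95% Wilson intervals for counting error. Regions without a later peak (blue) stand at 5.52% within 1 kb, below each of the 3 classes with a later peak. Their interval overlaps that of the class met by all 4 later lists. Beyond 100 kb they stand at 24.7%, against 25.1% with a CD73+ HEB peak alone, 22.7% in the other partly met class and 32.8% with all 4.

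No chromosome held the members apart. The share of joint regions without a later peak ran from 38.4% on chromosome 1 to 47.3% on chromosome 19 among the autosomes, with intervals that overlapped. It was 31 of 62 on X and 4 of 16 on Y.

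Distances from members to later peaks follow in part from the rule, which leaves out any overlap. They were not set against other positions in the genome. The median distance to the nearest peak of the 4 later lists was 21600 bp. It was under 200 bp for 8 members, within 1 kb for 86 (3.81%), within 10 kb for 676 (29.95%) and within 100 kb for 2078 (92.1%). By list, the median distance was 86363 bp to CD73- E2A, 74737 bp to CD73- HEB, 69816 bp to CD73+ E2A and 54771 bp to CD73+ HEB. The CD73+ HEB list, with fewer peaks than the CD73+ E2A list (10194 against 23205), thus came nearest. A joint region with a later peak lay within 10 kb of 329 members (14.6%) and within 100 kb of 1132 (50.2%). For joint regions that have a later peak themselves, another such region lay that near in 18.7% and 52.6%. Another member lay within 10 kb of 265 members (11.7%).

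**Figure D4:**
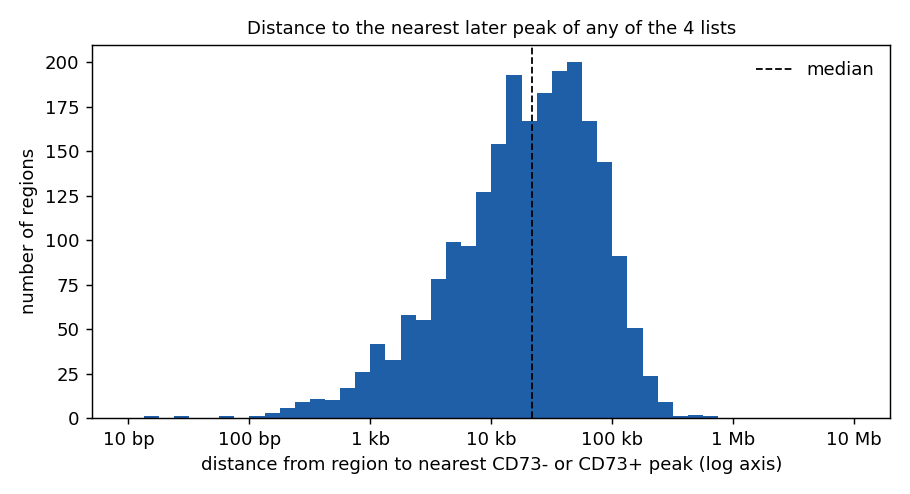
Number of joint regions without a later peak by distance to the nearest peak of any CD73- or CD73+ list, on a log axis. The dashed line is the median of 21600 bp, and 86 of 2257 regions lie within 1 kb.

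The overlap of 1 bp decides few members. Just inside the rule stood a region in Prkcq, the gene of protein kinase C theta (78.5 for E2A, 68.2 for HEB), 15 bp from a CD73+ E2A peak. Next to it came regions in Arntl, 27 bp from a CD73+ E2A peak, and in Mlycd, 58 bp from a CD73- E2A peak. Just outside, a region in Rapgef1 overlapped later peaks by 3 bp, one near Stc2 by 10 bp and one in Anks1b by 22 bp. Only 39 of the 3035 joint regions with a later peak overlapped it by 100 bp or less. More regions depend on the score asked of the later peak: in 1100 of the 3035 (36.2%) no later peak scored 100 or more. That score was reached by 1093 of 12434 CD73- E2A, 1348 of 9407 CD73- HEB, 1629 of 23205 CD73+ E2A and 2458 of 10194 CD73+ HEB peaks. In the DN3 lists it was reached by 5011 of 12357 E2A and 3567 of 11619 HEB peaks, so a cutoff of 100 is stricter for the later lists.

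Among the later lists, the one labelled CD73+ HEB met the most joint regions. The list labelled CD73+ E2A met the fewest although it is the longest, and whether the 2 CD73+ lists carry each other's names could not be settled from the files, so that what is said of either one rests on its label. Which regions lack a later peak does not depend on it. Of all 5292 joint regions, 2639 (49.9%) had a CD73+ HEB peak, against 1693 (32.0%) with CD73- HEB, 1268 (24.0%) with CD73- E2A and 845 (16.0%) with CD73+ E2A. In 1007 the CD73+ HEB peak was the only later one, while a CD73- HEB peak alone was found in 187, a CD73- E2A peak alone in 70 and a CD73+ E2A peak alone in 43. The 1007 lay between the members and the rest in score, with medians of 168 for E2A and 106 for HEB, and the 607 with a peak in all 4 later lists had medians of 460 and 372. Without the CD73+ HEB list 61.7% of joint regions would lack a later peak, and 63.4% would if only later peaks scored at least 100 counted. Members took up 2290 of the 12357 DN3 E2A peaks (18.5%) and 2268 of the 11619 DN3 HEB peaks (19.5%).

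Members lay in the span of, or within 10 kb of, 1566 of 21907 protein-coding and constant-region genes, 7.15%. A joint region was at 3086 genes, so that 50.7% of these had at least 1 member. At 1079, 35.0% of the 3086, every joint region was a member, and 487 genes had both kinds. Of the 1566 genes, 566 (36.1%) had no later peak of either factor within 10 kb. A single member was at 1303 genes, 2 were at 202 and 3 or more at 61, and 688 members had no gene within 10 kb.

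Gse1, which encodes a subunit of histone deacetylase complexes, had the most members, 11 of 21 joint regions. Hivep3, a zinc finger gene, had 7 of 8 and Fstl4 6 of 9. With 5 members each came Mvb12b of 6 joint regions, Septin9 of 11, Galnt2 of 7, Ago2 of 6, Itga9 of 7, Pakap of 7 and Bglap3 of 5. Ago2 encodes the Argonaute protein that cuts targets of small RNAs, and Itga9 an integrin. Bglap3 had no later peak within 10 kb. The others named here had one, up to a CD73+ HEB score of 1022 at Septin9 and 912 at Ago2. Long genes offer more room for peaks, and span length was not taken out.

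Members were set against 25 lists of T cell and other genes. Of 415 matched genes 66 had a member (15.9%), against 7.15% of all genes. Of the 164 with a joint region, 40.2% had a member, against 50.7% of all genes with one. The first share was above that of all genes and the second below it, and neither difference was tested. Without the CD73+ HEB list, 106 listed genes would have a member. Some genes are in several lists. For each list below, the shares to set beside its counts are 7.15% of all genes and 50.7% of genes with a joint region.

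Genes of the pre-T cell receptor and the alpha-beta lineage had members at 7 of 18 (38.9%, against 7.15% of all genes). Of the 13 with a joint region 7 had a member, and over all genes with a joint region 50.7% had one. Ptcra encodes the invariant pre-T alpha chain, a classic E protein target. Both of its joint regions were members, one in the span at chr17:46763324-46764340 (76.9 for E2A, 73.7 for HEB) and one 4029 bp outside it at chr17:46767742-46768369 (112 and 73.4), and the nearest later peak lay 25001 bp from the first. Cd4, the co-receptor gene that is silent in DN3 cells, had 2 of 2, one inside at chr6:124879321-124879966 (121 and 82.0) and one 9503 bp outside (75.7 and 114). The outer one lay 1080 bp from a later peak that falls beyond the 10 kb limit. Zbtb7b, which encodes ThPOK, the factor that directs thymocytes to the CD4 lineage, also had 2 of 2, scored 544 and 430, and 62.9 and 144. All 3 genes had no later peak within 10 kb.

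The others of that group had later peaks as well. Cd8b1 had 1 of 2 joint regions without one (233 and 123, 3354 bp from the span), Cd5 its only one (63.0 and 64.1), Dntt 1 of 3 (187 and 125) and Cd28 1 of 3 (61.4 and 78.1). Dntt encodes terminal deoxynucleotidyl transferase, which adds N nucleotides at V(D)J junctions.

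Genes of the T cell receptor complex and its first signalling steps had members at 9 of 20 (45.0%, against 7.15% of all genes). Of the 15 with a joint region 9 had a member, and over all genes with a joint region 50.7% had one. Cd3e, the CD3 epsilon chain gene, had 2 of 2 (96.8 and 68.8 in the span, 63.9 and 64.8 outside it) and no later peak within 10 kb. The same held for Lcp2, which encodes the adaptor SLP-76, with 2 adjacent regions in its span scored 204 and 162, and 203 and 50.9. Lck, the gene of the kinase that phosphorylates the receptor, had 1 of 3, a region 3133 bp from its span with 517 for E2A and 156 for HEB, and a CD73+ HEB peak of 437 lay within 10 kb. Lat, Cd247, Grap2 and Ubash3a each had 1 member among 2 or 3 joint regions, and at Csk and Prkcq the single joint region was a member although another later peak lay within 10 kb. Csk encodes the kinase that restrains Lck.

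Genes that respond to receptor signals gave a different count. Of 22, 9 had a joint region and 1 had a member, Irf4 (174 and 132, in the span), which also had no later peak. Egr1 and Id3, induced by receptor signals in thymocytes, each had 1 joint region, and both met later peaks, with CD73+ HEB scores of 103 and 94.3 within 10 kb. The cell cycle list was similar, with 7 genes at a joint region and 1 member, at Ccnd3 (cyclin D3), where it was 1 of 4 (78.2 and 91.5). A CD73- HEB peak of 2466 lay in the Ccnd3 span or within 10 kb of it, but the nearest later peak was 13982 bp from the member. None of 4 genes with a joint region in the unfolded protein response list had a member. Xbp1 is not among these 4, because the region near it lies beyond 10 kb. The differences between lists were not tested.

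**Figure D5:**
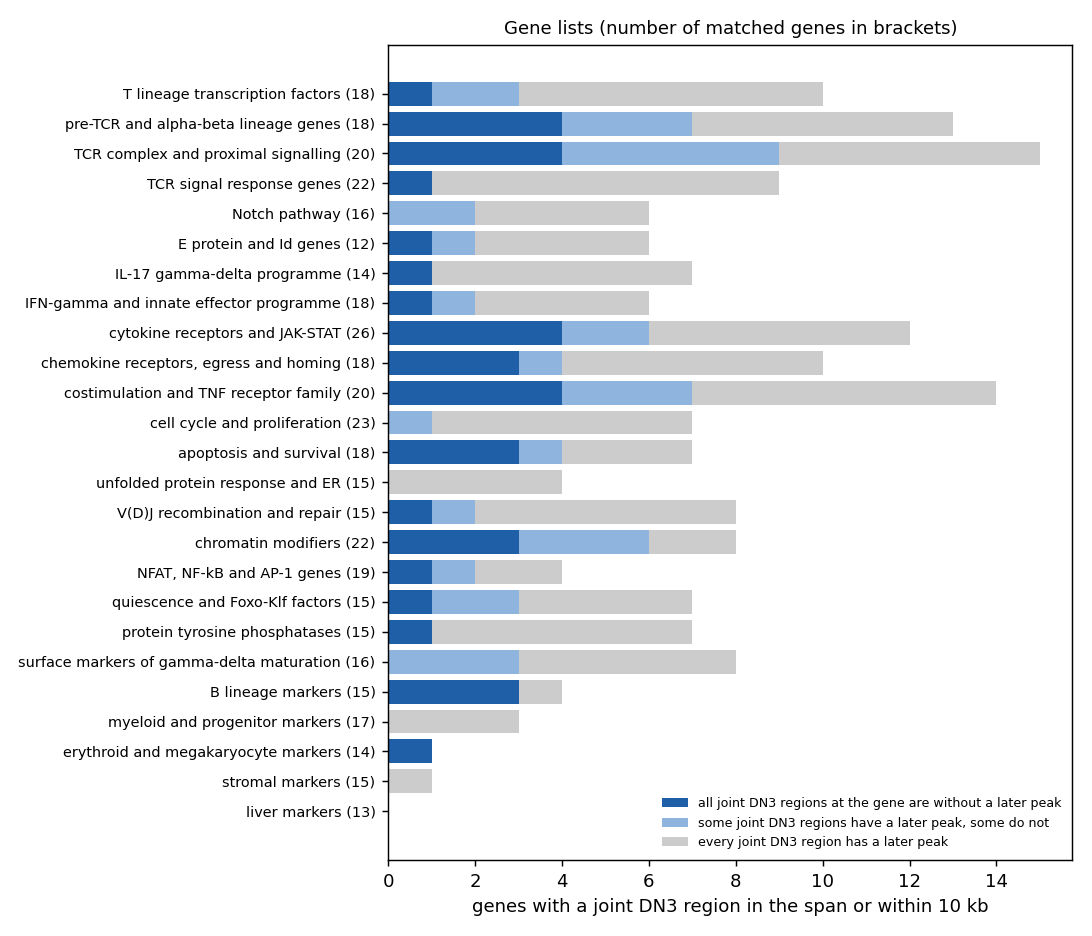
Number of genes in each list with a joint DN3 region in the span or within 10 kb, split into genes at which every joint region lacks a later peak (dark blue), genes with both kinds (light blue) and genes at which every joint region has a later peak (grey). The receptor complex list has 9 of 15 in blue and the signal response list 1 of 9, against 50.7% over all genes with a joint region.

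Among T lineage transcription factors, 3 of 18 had a member out of 10 with a joint region. Ikzf2, which encodes Helios, had its only one (77.7 and 82.2) and no later peak. Runx3, which encodes a factor of the CD8 lineage, had 2 of 3 (81.2 and 52.0, 76.3 and 62.2), and a CD73+ HEB peak of up to 424 lay within 10 kb. Tox2 had 2 of 4. Tcf7, Bcl11b, Rag1 and Notch3 had joint regions that all met later peaks, with CD73+ HEB scores of 136, 201, 169 and 952 within 10 kb, as did Sox13 and Tcf12 with 87.1 and 242. Gata3, Runx1 and Il7r had no joint region within 10 kb.

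Of the genes for E proteins and their partners, 2 of 12 had a member. Tcf3, the E2A gene itself, had its only joint region 9505 bp from the span at chr10:80443482-80444955 (275 and 120), while a CD73- HEB peak of 56.1 and a CD73+ HEB peak of 91.0 lay elsewhere within 10 kb. Lyl1, a partner of E proteins, had 1 of 2 (78.3 and 79.8). In the Notch list 2 of 16 had a member. Notch1, the receptor that drives T lineage commitment, had 1 of 2, 7657 bp from the span (236 and 106), and Notch2 had 1 of 3 (126 and 206).

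Genes of cytokine receptors and JAK-STAT signalling had members at 6 of 26 (23.1%), out of 12 with a joint region. No later peak lay within 10 kb of 4 of the 6, against 36.1% of all genes with a member. These 4 were Il4ra, the interleukin-4 receptor alpha gene (171 and 133), Tyk2 (94.0 and 57.9), Socs3 (63.1 and 68.9) and Cish (228 and 204). The last 2 encode inhibitors that cytokine signals induce, and Tyk2 encodes a Janus kinase. Each had a single joint region. The Cish region lay 9861 bp outside the span and 8521 bp from a later peak that falls beyond the 10 kb limit. Flt3, a progenitor receptor gene, had 1 of 2 (180 and 117) and Il21r 1 of 5.

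The costimulation and TNF family list had members at 7 of 20, all with a later peak within 10 kb. Ltb, Lta and Tnf are neighbours and share a single region, the one that holds the Ltb promoter (109 and 218). Cd27 had 2 of 4, Traf3 its only one, and Ctla4 1 of 2 (63.4 and 76.4). Chemokine and homing genes had 4 of 18. Itgal, the LFA-1 alpha chain gene, had its only one (108 and 274). Ccr4 and Selplg were also among them.

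Survival genes had members at 4 of 18. Bcl2 had its only joint region in its span (173 and 97.5), 146750 bp from any later peak, and Mcl1 its only one 5040 bp outside (206 and 92.2). Both encode proteins that block apoptosis. Bcl2l1 had 1 of 3 (183 and 82.6). Of chromatin genes 6 of 22 had members, out of 8 with a joint region. Smarca4 had 2 of 3 and Hdac7, a class IIa deacetylase gene of thymocytes, 2 of 4 (350 and 113, 180 and 217). Chd4, the NuRD remodeller gene (103 and 96.2), had no later peak, and Dnmt3b (76.8 and 148) and Tet3 (84.5 and 62.5) had CD73+ HEB peaks of 78.0 and 53.8 within 10 kb.

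The remaining T cell lists had 1 to 3 genes with a member each. The quiescence list had 3 of 15, with Foxo1 (90.2 and 81.0, no later peak), Klf13 (158 and 73.9) and Foxp1. The NFAT and NF-kB list had 2 of 19, with Nfkb1 at 2 of 2 (189 and 127 at the stronger) and Nfatc2 at 2 of 3. Ptprj, the CD148 phosphatase gene, was the only one of 15 phosphatase genes, with 3 of 3 (460 and 201 at the strongest). V(D)J genes had 2 of 15, Dntt and Prkdc (72.0 and 52.4). The interferon-gamma list had 2 of 18, Il2rb at 2 of 3 (256 and 98.7) and Slamf1 (62.1 and 54.1), and the interleukin-17 list had 1 of 14, Il23r (65.1 and 77.2). Of 16 gamma-delta surface markers 3 had a member, Cd27, Cd28 and Slamf6 (51.1 and 111).

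Among markers of other cell types, those of the B lineage had a member at 3 of 15 genes (20.0%, against 7.15% of all genes), out of 4 with a joint region. Ebf1, the B lineage factor gene that E2A activates in pro-B cells, had 2 of 2 (154 and 85.5, 173 and 84.3), the nearest later peak being 181211 bp from one of them. Vpreb1 and Igll1, the surrogate light chain genes, share a single region (206 and 84.7), 1649 bp from a later peak. Erythroid and megakaryocyte genes had 1 of 14, Gp1ba (141 and 138). Myeloid genes had 0 of 17, stromal genes 0 of 15 and liver genes 0 of 13. Peaks at these genes do not show which cells were present.

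Of 1005 microRNA hairpins in the RefSeq table, 10 lay within 1 kb of a member, at 6 members. One member, chr8:84207495-84208222 (61.3 and 55.6), lay 295 bp from Mir23a, the first hairpin of a cluster with Mir27a and Mir24-2. Another, chr17:17830901-17831434 (113 and 61.2), lay 21 bp from Mir125a and 456 bp from Mirlet7e, hairpins known from blood progenitors and lymphocytes. Members overlapped Mir7050 (56.0 and 79.4) and Mir8104 (86.8 and 62.2). The members named here were chosen from these 6 after their values were seen.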

How the data were processed

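E2A and HEB binding was measured by chromatin immunoprecipitation in DN3, CD73- and CD73+ mouse cells, with 1 library per group and rabbit antibodies to either protein. Per the submitters' processing notes, the authors used Bowtie, HOMER and MACS 1.4.2 with build mm10, and per the labels' protocols duplicates were joined before peak calling. The deposited score of each peak was used unchanged, and 0 peak lists were left without a group. Read depth is not given. Of 79900 peaks, 684 on other sequences were left out. Regions were merged at 1 bp, and genes, promoters and hairpins came from RefSeq tables of GRCm38.p6, with 17492 of 21907 genes having a promoter window. Of 416 listed symbols 415 matched. No genome sequence was used, so motifs inside members away from promoters were not searched.

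The members and lists were chosen with earlier results of these data known. The genes named are the top 12 members by each score, the 8 with most members (3 or more, ties by E2A score; the others with 5 were added), the listed genes with the highest scores or with members only, members nearest the rule's edge, and a set of regulators. Further listed genes were added after their values were seen. Some genes that the rule names are counted but not reported here. Shares have 95% Wilson intervals for counting error. With 1 pooled list per group no p-value was computed. Merging, membership and motif search were tested on simulated data. The tools were Python 3.11.15 with scipy 1.17.1, matplotlib 3.10.9, pandas 2.3.3 and numpy 2.4.6.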

Additional observations from a re-analysis of the deposited data

How the results depend on the processing

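Against 2257 members (42.6% of joint regions), 1566 genes and 66 listed genes, 16 alternatives were run. DN3 peaks of at least 100 only left 650 members (24.6%), 535 genes and 20 listed genes. A score of at least 100 in all 6 lists left 1175 (44.4%), 903 and 40. The same minimum for the later lists alone gave a share of 63.4%. Without the CD73+ HEB list the share was 61.7% with 106 listed genes, without CD73- HEB 46.2% and without CD73- E2A 44.0%. Counting later peaks within 1 kb gave 41.0%, and lists of 9407 peaks each gave 40.8%. In 2 alternatives added after seeing the data, counting only the HEB lists as later gave 45.0%, and only the E2A lists gave 3851 members (72.8%), 2422 genes and 123 listed genes. Leaving out CD73+ E2A, an overlap of 50% of the narrower peak, leaving out peaks over 3000 bp, all sequences, a 5 kb window and the nearest span alone moved no count by over 1.5 times and no share beyond its interval. The count of listed genes therefore rests in part on 1 list, labelled CD73+ HEB. Of the medians and position shares of members, 48 recomputed values stayed within the interval of the reported one and 22 moved beyond it. Exchanging the CD73+ E2A and HEB lists leaves the members as they are, since both count as later, but would change what the values without one of them stand for. Unknown depth limits every statement that no peak was called. No paired analysis was possible because each group has 1 pooled list. Motif search inside the member regions was not run.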
